A study of Mus musculus with 4 samples.

Results

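The Slc25 genes encode the mitochondrial carriers, the largest family of transport proteins of the mitochondrial inner membrane. Members were taken as the rows of the deposited expression table that are marked as protein-coding and whose trimmed symbol begins with Slc25a and a digit. This gave 47 genes of the 53715 in the table, or of the 21981 protein-coding ones. The rule itself used gene type and name and no measured value, though the members were chosen with earlier results of these data known.

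Most carriers exchange a solute of the matrix for one of the cytosol, so the oxidation of fuels, the export of ATP and the supply of cofactors, amino acids, iron and phosphate to the matrix all depend on them. They are encoded in the nucleus, made in the cytosol and inserted into the inner membrane by a dedicated import route. Not every member sits there: Slc25a17 is a carrier of peroxisomes and Slc25a46 an outer-membrane protein that acts in mitochondrial dynamics.

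The RNA was total RNA of sorted CD4+CD8+ double-positive thymocytes, the stage at which developing T cells carry both coreceptors and rearrange the T cell receptor alpha chain. The KO group held 2 libraries of C57BL/6 mice aged 6 to 8 weeks with the genotype LCKCre/+ Srsf1fl/fl, in which the Lck promoter, active from early thymocyte stages, drives a Cre recombinase that deletes floxed Srsf1. The WT group held 2 libraries of the same strain, age range and sorted population, labelled WT with no further allele given. Srsf1 encodes an SR protein that acts in splice site choice. The comparison asks how thymocytes of this deletion genotype, which kept Srsf1 RNA at 0.383 times the WT level, differ in their transcripts from WT. The labels do not say whether the libraries of a group came from separate animals, so p-values speak only for the spread among these libraries, which may be technical.

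Library totals lay between 35862730 and 37033180 counts. Srsf1 itself had 1839 and 1772 counts in KO libraries, against 4821 and 4485 in WT libraries, and fell by 1.39 on the log2 scale (SE 0.09, edgeR adjusted p = 2.91e-06). Libraries of 1 group correlated more closely (r = 0.96 within KO and 0.962 within WT across genes, log2 CPM) than libraries of different groups (0.946 to 0.952), and no library stood apart. Of 8 markers of double-positive thymocytes 5 were called higher in KO (edgeR adjusted p under 0.05), beside 6.63% of all 16588 tested genes. Among them were Rag1 by 0.88, Dntt by 0.73 and Cd8a by 0.20 on the log2 scale. The summed level of all 8 was 11546 and 11162 CPM (the count scaled to the library total) in KO libraries against 8142 and 7823 CPM in WT libraries. Markers of myeloid and thymic epithelial cells were low or near 0: the myeloid list summed to 24.9 and 13 CPM in KO against 20.5 and 18.5 CPM in WT, and the thymic epithelial list to 12.1 and 9.89 CPM in KO against 11.6 and 13.4 CPM in WT, with Foxn1 and Krt5 at 0 counts. The B cell list summed to 347 and 340 CPM in KO against 228 and 224 CPM in WT, nearly all of it Ighm, which rose by a log2 fold change of 0.61 (edgeR adjusted p = 0.000182). Of the other B cell markers Cd79a had 71 and 99 counts in KO against 24 and 59 in WT, and Ms4a1 had 0 and 10 in KO against 10 and 24 in WT, neither of them called. The part of the marker shifts in the carrier values was not tested. In bulk RNA, fewer cells of a type and less RNA per cell cannot be told apart.

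Promoters of 3 carriers that fell in KO are shown, because of letters they hold or a neighbour they share. RefSeq promoter windows (300 bases, GRCm38.p6, 250 before and 50 after the annotated start) were matched for 36 of the 47 members, in 46 windows. The cyclic AMP response element TGACGTCA, a palindrome, was found in 2 of these windows, which is 4.35% of them, against 1.79% of all 32851 windows in the table. The carriers concerned were Slc25a25 and Slc25a36, and in the sequences below its letters are in capitals, starting at position -150 and position -161 relative to the annotated start. Slc25a25 has 3 windows in the table, and the one shown lies at chr2:32424017-32424316 on the minus strand. The Slc25a36 window lies at chr9:97110992-97111291 on the minus strand and also holds the E-box CACGTG, upstream of the capitals and not overlapping them. The third window, of Slc25a29, lies at chr12:108835827-108836126 on the minus strand. Its capitals mark the 162 bases between the starts of Slc25a29 and of a second carrier gene, Slc25a47, which GENCODE release 21 places head to head on opposite strands. RefSeq instead gives Slc25a47 a window further along the chromosome, at chr12:108850879-108851178 on the plus strand.
Slc25a25: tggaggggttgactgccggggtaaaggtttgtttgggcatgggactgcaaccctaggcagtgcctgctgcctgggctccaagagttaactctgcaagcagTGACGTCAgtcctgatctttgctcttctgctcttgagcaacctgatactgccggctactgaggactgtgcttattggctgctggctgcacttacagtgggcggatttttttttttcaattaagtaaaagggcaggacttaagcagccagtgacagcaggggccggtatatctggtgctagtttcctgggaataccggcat
Slc25a36: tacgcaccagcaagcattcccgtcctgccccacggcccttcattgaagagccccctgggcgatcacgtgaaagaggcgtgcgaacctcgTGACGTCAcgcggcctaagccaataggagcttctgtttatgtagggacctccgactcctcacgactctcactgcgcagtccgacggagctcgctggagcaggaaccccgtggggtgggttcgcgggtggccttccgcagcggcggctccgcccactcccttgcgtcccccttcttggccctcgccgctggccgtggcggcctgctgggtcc
Slc25a29: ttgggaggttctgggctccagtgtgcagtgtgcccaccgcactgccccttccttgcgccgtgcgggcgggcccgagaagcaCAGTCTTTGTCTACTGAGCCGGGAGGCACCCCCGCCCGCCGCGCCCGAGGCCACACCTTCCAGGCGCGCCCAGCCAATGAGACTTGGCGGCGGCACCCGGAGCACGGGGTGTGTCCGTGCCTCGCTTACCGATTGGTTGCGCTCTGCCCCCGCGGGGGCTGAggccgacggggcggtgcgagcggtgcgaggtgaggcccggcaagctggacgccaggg
A further 4 motifs were searched on both strands. The E-box CACGTG was in 8 of the 46 carrier windows (17.4%, against 7.15% of all windows), the ETS core CCGGAAG in 7 (15.2% against 8.86%), the NRF1 core GCGCATGC in 2 (4.35% against 2.71%) and the YY1 core AAGATGG in 2 (4.35% against 6.34%). The 8 E-box windows belonged to 7 carriers. Both NRF1 windows belonged to carriers with too few counts to be tested, Slc25a31 and Slc25a54. A match describes letters only, and no binding was measured.

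Of the 47 carriers, 40 had counts high enough to be tested, and 12 of these were called at an edgeR adjusted p under 0.05: 3 rose in KO (Slc25a5, Slc25a11 and Slc25a40) and 9 fell (Slc25a29, Slc25a13, Slc25a16, Slc25a53, Slc25a30, Slc25a25, Slc25a32, Slc25a36 and Slc25a3). Calls in either direction made up 30% of tested carriers, against 14.5% of all 16588 tested genes. Higher calls made up 7.5%, against 6.63% of all genes, and lower calls 22.5%, against 7.89%. The 40 carriers all had a mean of at least 1 CPM, as did 12818 genes in the data. With that mean as the filter 5 carriers were called higher and 10 lower, beside 1306 and 1572 of the 12818 genes. After a correction for a trend of fold change with gene length the split was 5 higher and 5 lower. Over all tested genes this correction moved higher calls from 1100 to 1500 and lower calls from 1308 to 1036. Slc25a5, Slc25a29, Slc25a30, Slc25a25, Slc25a53 and Slc25a16 kept their calls under all 13 alternatives run on counts. On the log2 RPKM scale (pseudocount 0.5 or 0.1), limma called 0 carriers, with 15 at an unadjusted p under 0.05 for each pseudocount. Over all genes it called 0 with pseudocount 0.5, and 22 higher and 60 lower with pseudocount 0.1. The median log2 fold change of tested carriers was -0.06, beside 0.00 for all tested genes, and the median absolute change was 0.30, beside 0.34. Fold changes were positive for 19 carriers and negative for 21. KO and WT libraries did not overlap for 26 tested carriers (65%), with KO above WT in 11 and below in 15, against 55.9% of all tested genes.

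**Figure D1:**
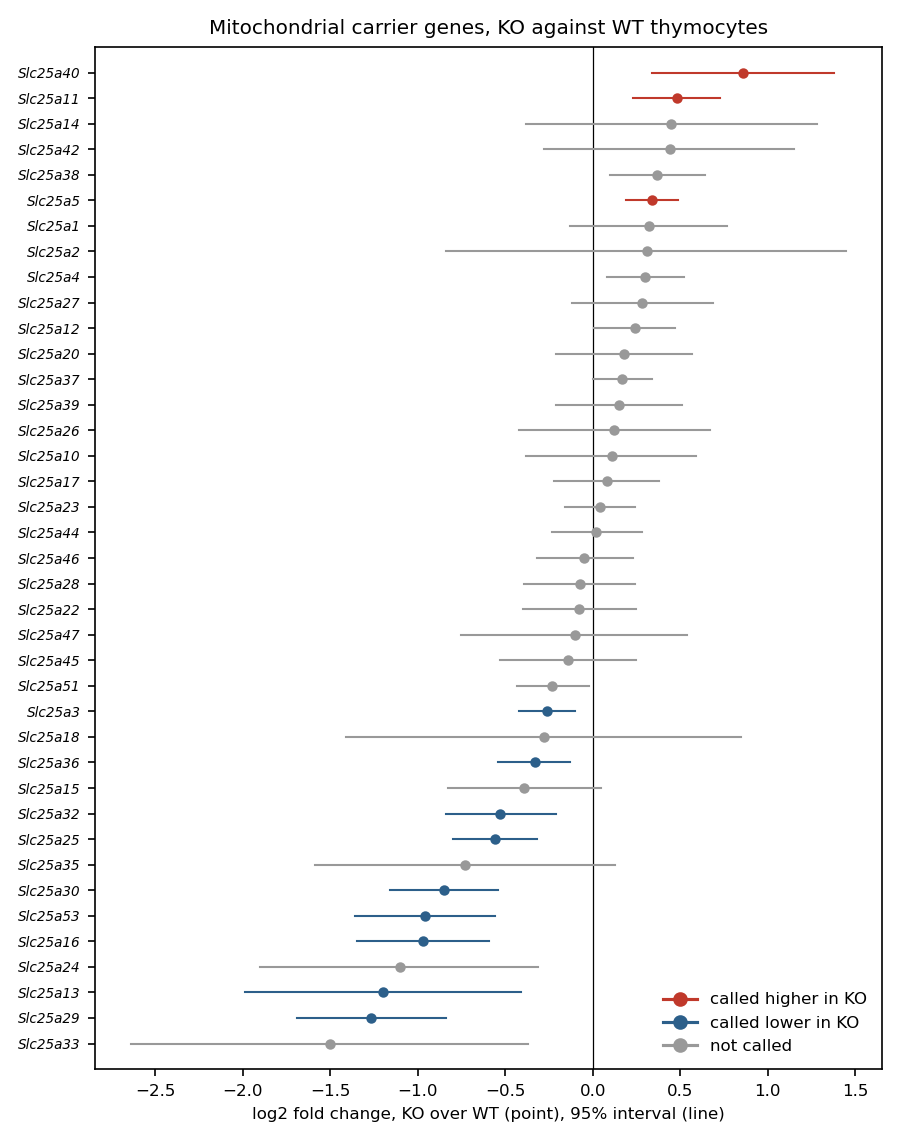
Log2 fold change of KO over WT for 39 of the 40 tested carriers (points, ordered by fold change) with its 95% interval from the edgeR fit (lines), coloured by call. The 3 carriers called higher lie between 0.34 and 0.86, and the 9 called lower between -1.27 and -0.26; Slc25a33 has the lowest point, -1.50, with an interval from -2.64 to -0.37 and is not called.

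Levels are given in RPKM, the count scaled by gene length and by library total, so that genes can be set side by side. Ranks and shares of genes depend on that length, which for 42 of 47 carriers equals the merged length of all annotated exons. In counts Slc25a3 (5550 bases) stood above Slc25a5 (1646 bases) in WT, at 15451 and 15629 against 13654 and 13831. In KO Slc25a3 stood below Slc25a5, at 13920 and 12368 against 18439 and 16875. By RPKM the family was dominated by few genes. Slc25a5 alone supplied 41.4% and 40.1% of the summed carrier RPKM in KO libraries, against 34.6% and 34.5% in WT libraries, and the sums over all 47 carriers were 731 and 703 RPKM in KO against 669 and 667 RPKM in WT. By mean RPKM over the 4 libraries the leading carriers were Slc25a5 (261), Slc25a3 (70.9), Slc25a37 (44.3), Slc25a4 (40.6) and Slc25a51 (25.1), while the other tested carriers reached down to 1.15. Carriers called lower had a median of 6.15 RPKM and carriers called higher 23.2 RPKM. The 7 carriers that could not be tested had at most 33 counts in any library. Slc25a21, the oxodicarboxylate carrier, and Slc25a54 had 0 counts in all 4 libraries. Slc25a48 had 1 count, in a KO library, and Slc25a34 had 7 counts, all in a WT library. Slc25a31, the germ line ADP/ATP carrier, had 33 counts in 1 WT library and 0 in the other libraries, Slc25a41 had 0 and 1 in KO against 6 and 0 in WT, and Slc25a43 had 4 and 7 in KO against 17 and 0 in WT.

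**Figure D2:**
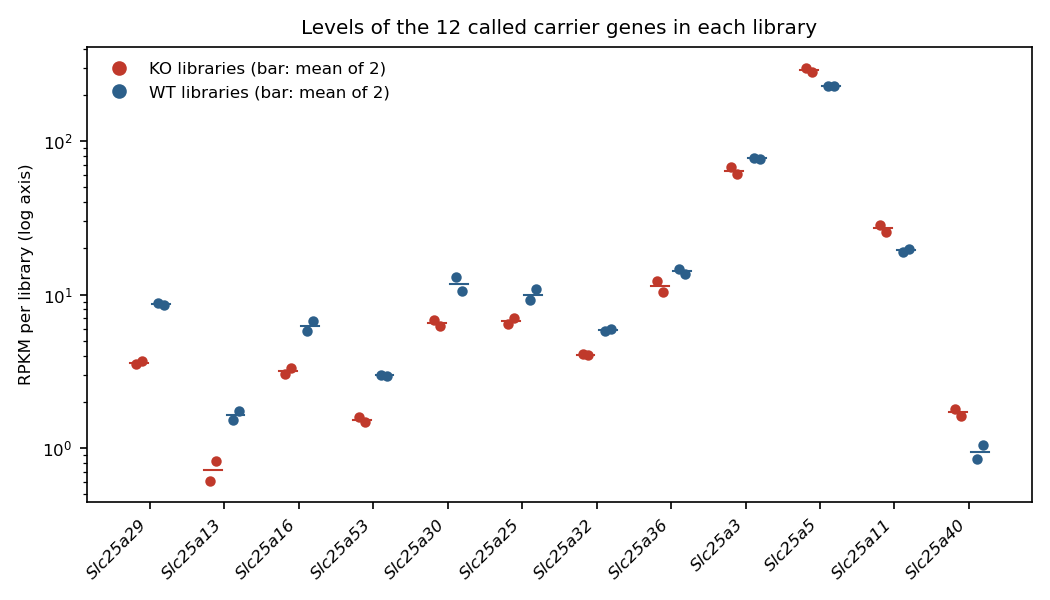
RPKM of the 12 called carriers in each library on a log axis, with KO libraries left of WT libraries and a bar at the mean of 2. The groups are apart for every gene shown, from Slc25a5 near 292 RPKM in KO and 231 RPKM in WT down to Slc25a13 at 0.715 RPKM in KO and 1.64 RPKM in WT. The genes were picked by their calls in these same libraries, so the separation adds no support to the calls. Over all tested genes 55.9% did not overlap between groups in CPM.

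The carriers of ATP, ADP and phosphate serve oxidative phosphorylation directly, and the 2 most abundant of them moved in opposite directions. Slc25a5 encodes ADP/ATP translocase 2, which exports ATP from the matrix in exchange for ADP. It stood at 302 and 282 RPKM in KO libraries, against 231 and 230 RPKM in WT libraries. Both KO values were above both WT values, and Slc25a5 rose by a log2 fold change of 0.34 (SE 0.07, edgeR adjusted p = 0.00583). Its transcript (chromosome X, 36795651 to 36798807, plus strand, GRCm38) shares 33.8% of its 50-base words with 9 other genes, among them processed pseudogenes. The counts of Slc25a5 therefore depend on how shared reads were assigned. The pseudogenes that share most with it, Gm5560 and Gm5529, had 55 counts or fewer in every library. Slc25a3 (chromosome 10, 91116574 to 91124059, minus strand) encodes the phosphate carrier, which brings in the phosphate for ATP synthesis and also carries copper. It stood at 67.7 and 61.2 RPKM in KO, against 77.6 and 77.1 RPKM in WT. The groups did not overlap, and Slc25a3 fell by 0.26 on the log2 scale (SE 0.07, edgeR adjusted p = 0.0297). This call did not hold with KO replicate 2 left out (adjusted p = 0.113), without WT replicate 1 (0.134), without WT replicate 2 (0.0977) or after the length correction (0.127). Slc25a4, ADP/ATP translocase 1, the form known from heart and muscle, had 47.3 and 42.2 RPKM in KO against 38.9 and 33.8 RPKM in WT. Its KO values were the higher ones, with a log2 fold change of 0.30 (95% interval 0.08 to 0.52) and an edgeR adjusted p of 0.0658. Dropping each library in turn gave Slc25a4 log2 fold changes from 0.21 (WT replicate 2 dropped) to 0.41 (WT replicate 1 dropped). Slc25a5 held 86.5% and 87% of the RPKM of the 2 translocases in KO against 85.6% and 87.2% in WT, so the ranges overlapped.

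The ATP-Mg/phosphate carriers set the total adenine nucleotide content of the matrix, and most of them are switched by calcium. Of 4 genes, 3 were tested and 1 fell, beside 7.89% of all tested genes called lower. Slc25a25 (chromosome 2, 32414487 to 32451445, minus strand), 1 of the carriers with TGACGTCA in a promoter window, had 6.46 and 7.05 RPKM in KO, against 9.19 and 10.8 RPKM in WT. The groups did not overlap, and the log2 fold change was -0.56 (SE 0.11, edgeR adjusted p = 0.0053). Its exons share 379 of 7862 bases with Naif1 on the opposite strand, whose own fold change was -0.55 (adjusted p = 0.106). Slc25a24 was scarcer, with 0.748 and 0.849 RPKM in KO against 1.5 and 1.95 RPKM in WT. All KO values lay below WT, but with a log2 fold change of -1.10 (SE 0.37) its adjusted p was 0.0641. Slc25a23, the most abundant of the 3, had 22 and 22.1 RPKM in KO against 23 and 20 RPKM in WT, with a log2 fold change of 0.04 and a 95% interval from -0.16 to 0.24. Slc25a24 made up 10.4% and 10.7% of the RPKM of the pair with Slc25a25 in KO, against 14% and 15.3% in WT.

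Among the carriers of dicarboxylates and citrate, the malate-aspartate shuttle carriers moved apart. This shuttle carries the electrons of cytosolic NADH into the matrix, with the oxoglutarate carrier Slc25a11 and an aspartate-glutamate carrier, Slc25a12 (aralar) or Slc25a13 (citrin), as its membrane steps. Slc25a11 (chromosome 11, 70644196 to 70647479, minus strand) had 28.3 and 25.7 RPKM in KO, against 19.1 and 19.8 RPKM in WT. Both KO values were above both WT values, and it rose by a log2 fold change of 0.48 (SE 0.12, edgeR adjusted p = 0.0155). The adjusted p was 0.0581 without KO replicate 1 and 0.0532 without WT replicate 1. Its exons share 189 of 2120 bases with Rnf167 on the opposite strand, whose fold change was -0.14 (adjusted p = 0.269). Slc25a13 (chromosome 6, 6041218 to 6217173, minus strand) had 85 and 114 counts in KO, against 209 and 243 counts in WT, or 0.604 and 0.825 RPKM in KO against 1.53 and 1.75 RPKM in WT. The KO counts were below both WT counts, and it fell by 1.20 on the log2 scale (SE 0.36, edgeR adjusted p = 0.0454). This was the call nearest to the threshold, and it was lost without KO replicate 1 (adjusted p = 0.189), without WT replicate 1 (0.0513), without WT replicate 2 (0.173) and after the length correction (0.0541). Slc25a12, the more abundant of the aspartate-glutamate carriers, had 10.4 and 10.8 RPKM in KO against 8.3 and 9.63 RPKM in WT. Its KO values were the higher ones, but at a log2 fold change of 0.24 (SE 0.10) its adjusted p was 0.154. Slc25a13 therefore made up 5.51% and 7.09% of the RPKM of this pair in KO, against 15.6% and 15.4% in WT. Neither the citrate carrier Slc25a1 (log2 fold change 0.32, adjusted p = 0.36) nor the dicarboxylate carrier Slc25a10 (0.11, adjusted p = 0.839) was called.

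Of 9 carriers of nucleotides and cofactors, all tested, 3 were called, each of them lower in KO. Over all tested genes 7.89% were called lower. Slc25a16, needed for mitochondrial coenzyme A, had 3.03 and 3.33 RPKM in KO, against 5.78 and 6.71 RPKM in WT. The KO values were about the same in both libraries and below both WT values, and Slc25a16 fell by 0.97 on the log2 scale (SE 0.17, edgeR adjusted p = 0.00287). It lies on chromosome 10 (62920633 to 62946498, plus strand). Slc25a42, the coenzyme A carrier with which it was paired, had 1.12 and 1.82 RPKM in KO against 1.32 and 0.859 RPKM in WT, with overlapping groups (log2 fold change 0.44, adjusted p = 0.45). Slc25a16 made up 73% and 64.6% of the pair in KO, against 81.5% and 88.6% in WT. Slc25a32 (chromosome 15, 39091231 to 39112716, minus strand), the carrier of folate and FAD, had 4.07 and 4.06 RPKM in KO, against 5.78 and 5.94 RPKM in WT. Replicates were close and the groups apart, and it fell by 0.53 on the log2 scale (SE 0.14, edgeR adjusted p = 0.0285). Leaving out any 1 of the 4 libraries ended this call, with adjusted p of 0.069 without KO replicate 1, 0.0515 without KO replicate 2, 0.0824 without WT replicate 1 and 0.0965 without WT replicate 2, and so did the length correction (0.0563). Slc25a36 (chromosome 9, 97074961 to 97111157, minus strand), a pyrimidine nucleotide carrier and the second gene with TGACGTCA in its promoter window, had 12.2 and 10.4 RPKM in KO, against 14.8 and 13.7 RPKM in WT. The groups did not overlap, and it fell by 0.33 on the log2 scale (SE 0.09, edgeR adjusted p = 0.0337), a call that did not hold with KO replicate 2 left out (0.142), with WT replicate 1 left out (0.172) or after the length correction (0.13). Slc25a33, its pyrimidine-carrying partner, had 0.701 and 0.495 RPKM in KO against 1.68 and 1.71 RPKM in WT. Both KO values were below both WT values, and its log2 fold change of -1.50 was the lowest in the family, but with an SE of 0.52 its adjusted p was 0.0759. Slc25a33 held 5.43% and 4.54% of the RPKM of this pair in KO, against 10.2% and 11.1% in WT. Slc25a51, the NAD carrier and the most abundant of this group, had 23 and 23.2 RPKM in KO against 24.6 and 29.6 RPKM in WT. Its log2 fold change was -0.23 (SE 0.09, adjusted p = 0.138). With each library dropped in turn, this value ranged from -0.35 (WT replicate 1 dropped) to -0.08 (WT replicate 2 dropped). The S-adenosylmethionine carrier Slc25a26 and the peroxisomal carrier Slc25a17 had log2 fold changes of 0.12 and 0.08 and were not called.

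Of 7 amino acid carriers, all tested, 1 fell, beside 7.89% of all tested genes called lower. Slc25a29 (chromosome 12, 108825873 to 108835883, minus strand), a carrier of basic amino acids, had 340 and 350 counts in KO, against 830 and 809 counts in WT. In RPKM this was 3.52 and 3.69 in KO against 8.88 and 8.5 in WT, with close replicates and groups far apart. Slc25a29 fell by 1.27 on the log2 scale (SE 0.20, edgeR adjusted p = 0.0011), the lowest fold change and the smallest adjusted p among called carriers, and its KO level was 0.416 times the WT level. Slc25a47, which GENCODE places head to head with it, had 2.15 and 2.08 RPKM in KO against 2.51 and 2.04 RPKM in WT. Those groups overlapped, with a log2 fold change of -0.10 (95% interval -0.75 to 0.54, adjusted p = 0.892). The difference between both fold changes was not tested. The other carriers that act on basic amino acids, the ornithine carriers Slc25a15 and Slc25a2, were not called. Slc25a15 had 2.14 and 2.43 RPKM in KO against 2.97 and 3.02 RPKM in WT (log2 fold change -0.39, adjusted p = 0.243), and Slc25a2 overlapped between groups. Slc25a38, which supplies glycine for haem synthesis, had 17.1 and 17.8 RPKM in KO against 13.6 and 13.4 RPKM in WT. Its KO values were the higher ones, with a log2 fold change of 0.37 (SE 0.12) and an adjusted p of 0.0655. The glutamate carriers Slc25a22 and Slc25a18 and the branched-chain amino acid carrier Slc25a44 had overlapping groups and fold changes of -0.08, -0.28 and 0.02.

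Of the 4 carriers of iron and glutathione, all tested, 1 rose, beside 6.63% of all tested genes called higher. Slc25a40 (chromosome 5, 8422850 to 8454797, plus strand) belongs, with its paralog Slc25a39, to the carriers that bring glutathione into mitochondria. It had 558 and 491 counts in KO, against 253 and 318 counts in WT, or 1.8 and 1.61 RPKM in KO against 0.841 and 1.04 RPKM in WT. The KO counts were above both WT counts, and Slc25a40 rose by a log2 fold change of 0.86 (SE 0.24, edgeR adjusted p = 0.0302), the highest in the family. The adjusted p was 0.11 without KO replicate 1 and 0.123 without WT replicate 1. Slc25a39 had 13.9 and 11.2 RPKM in KO against 9.84 and 12.8 RPKM in WT, with overlapping groups (log2 fold change 0.15, adjusted p = 0.641). Slc25a39 thus held 88.5% and 87.5% of the RPKM of the pair in KO, against 92.1% and 92.5% in WT. Mitoferrin 1 (Slc25a37), the iron importer known from erythroid cells, had 45 and 48.9 RPKM in KO against 42.6 and 40.9 RPKM in WT. The groups did not overlap, but at a log2 fold change of 0.17 (SE 0.08) its adjusted p was 0.17. Erythroid markers were near 0 beside it, at 0.54 and 3.05 summed CPM in KO against 1.17 and 5.26 in WT, with Slc4a1 at 0 counts. Mitoferrin 2 (Slc25a28) had 20.8 and 22.1 RPKM in KO against 20.9 and 24.2 RPKM in WT (log2 fold change -0.07, adjusted p = 0.832), and made up 31.6% and 31.2% of the mitoferrin RPKM in KO against 33% and 37.2% in WT. The size of this share depends on the deposited length of Slc25a28, 1514 bases, where its merged exons in GENCODE release 21 span 3749 bases.

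The uncoupling protein-like carriers Slc25a14, Slc25a27 and Slc25a30 resemble the uncoupling proteins, which let protons re-enter the matrix. Slc25a30 (chromosome 14, 75760117 to 75787037, minus strand) had 6.81 and 6.25 RPKM in KO, against 13 and 10.6 RPKM in WT. Both KO values were below both WT values, and it fell by 0.85 on the log2 scale (SE 0.14, edgeR adjusted p = 0.00177). Slc25a14 and Slc25a27 were higher in both KO libraries than in both WT libraries, with log2 fold changes of 0.45 and 0.28, but had adjusted p of 0.52 and 0.375. Ucp2, the uncoupling protein of lymphoid cells and a family protein without the Slc25 symbol, had 130 and 127 RPKM in KO, against 91.5 and 92 RPKM in WT. It rose by a log2 fold change of 0.49 (SE 0.06, edgeR adjusted p = 0.000308). Ucp3, Mtch1 and Mtch2, other family proteins without that symbol, were tested and not called.

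The carnitine-acylcarnitine carrier Slc25a20, which admits fatty acids for oxidation, had 4.03 RPKM in both KO libraries against 3.57 and 3.55 RPKM in WT. The groups did not overlap, but its log2 fold change of 0.18 had an adjusted p of 0.603. Slc25a46 had 10.1 and 9 RPKM in KO against 9.7 and 10.1 RPKM in WT and was not called (log2 fold change -0.05, 95% interval -0.32 to 0.23). The remaining 8 carriers, for which no substrate is named here, included 4 tested ones. Of these 1 fell, beside 7.89% of all tested genes called lower. Slc25a53 (chromosome X, 136981116 to 137038302, minus strand) had 1.59 and 1.47 RPKM in KO, against 3 and 2.95 RPKM in WT. Replicates were close, the groups were apart, and it fell by 0.96 on the log2 scale (SE 0.18, edgeR adjusted p = 0.00449). Slc25a45, Slc25a47 and Slc25a35 were not called, and 25% of the 50-base words of Slc25a35 are shared with other genes.

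**Figure D3:**
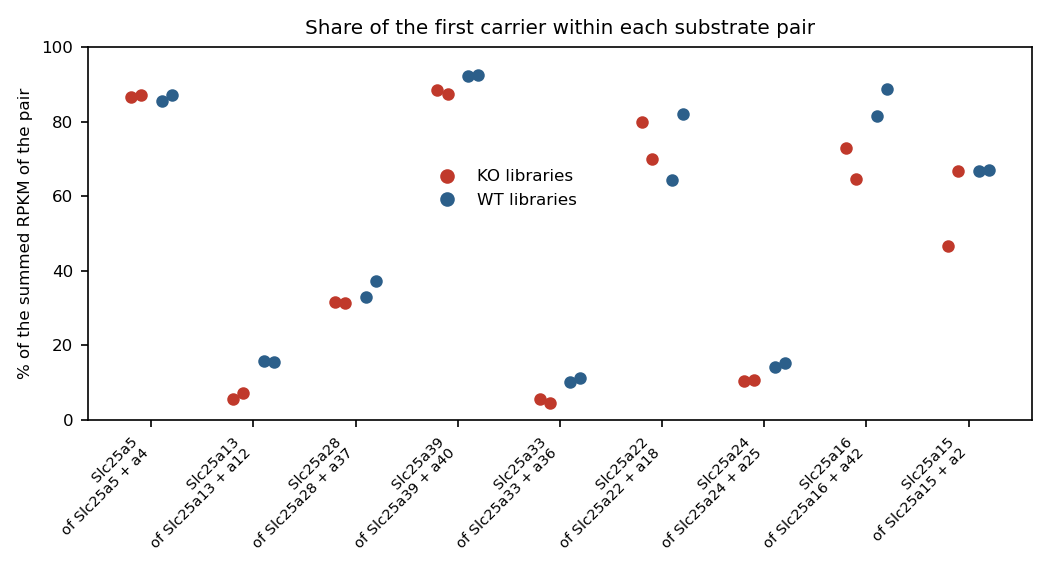
Share of the first-named carrier in the summed RPKM of each pair of carriers with a like substrate, in percent, for each KO library (left) and WT library (right). The libraries separate by group for 6 of the 9 pairs. Beside this, 55.9% of all tested genes taken singly did not overlap between groups in CPM, and no such share was computed over gene pairs. In the pair of aspartate-glutamate carriers Slc25a13 held 5.51% and 7.09% in KO against 15.6% and 15.4% in WT. The shares of Slc25a5, Slc25a22 and Slc25a15 overlap between groups.

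Over all 9 pairs of carriers with a like substrate the share of the scarcer gene in the pair was lower in both KO libraries for Slc25a13, Slc25a24, Slc25a28 and Slc25a33, and higher in both for Slc25a40 and Slc25a42. With 2 libraries against 2 no exact permutation test can pass the threshold of 0.05, so these shares are descriptions.

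Gene length was set beside the calls, of which only 3 were higher. Carriers called lower had a median length of 5550 bases and carriers called higher 2120 bases, with 3443 bases for those not called. With all tested genes split by length into 4 equal classes, the share called lower was 1.83% in the shortest class, then 6.34%, 10.5% and 12.9% in the longest, and the carriers called lower numbered 0, 1, 4 and 4 of 3, 15, 13 and 9 tested in these classes. The share of all genes called higher was also smallest in the shortest class, at 3.38%, then 7.23%, 7.98% and 7.93%, and the carriers called higher numbered 1, 1, 0 and 1. Slc25a40, one of the 3 called higher, is 8386 bases long. After the length correction Slc25a29, Slc25a16, Slc25a53, Slc25a30 and Slc25a25 remained lower and Slc25a5, Slc25a11 and Slc25a40 higher, while Slc25a4 (adjusted p = 0.039) and Slc25a38 (0.0377) were added to the higher calls. What length stands for in these libraries was not tested.

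**Figure D4:**
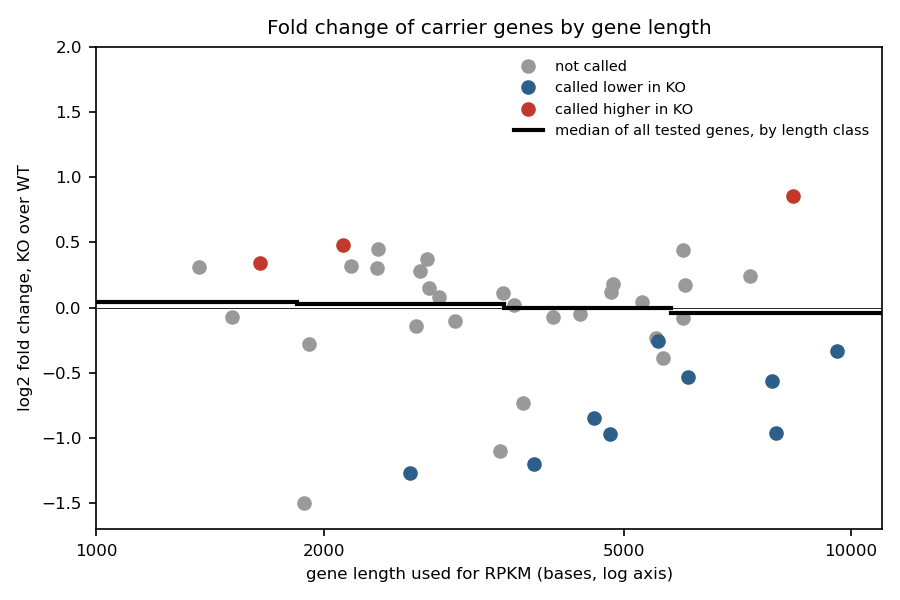
Log2 fold change of KO over WT against gene length in bases (log axis) for the 40 tested carriers, coloured by call; black bars give the median of all tested genes in each of 4 length classes. The bars run from 0.04 in the shortest class to -0.04 in the longest, and 8 of the 9 carriers called lower lie in the 2 longer classes.

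SRSF1 is known to bind purine-rich RNA with a GGAGA core. In the longest coding transcripts the median frequency of these letters was 0.718 per kilobase for the 3 carriers called higher, 1.01 for the 9 called lower and 1.51 for the 28 not called, against 1.96 over 12607 tested protein-coding genes. Slc25a3 and Slc25a5 held 0 per kilobase, and 0 matches in a transcript say nothing of binding.

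Calls among genes that place carriers in the membrane or stand beside them are read against the 14.5% of all tested genes that were called. Of 15 tested genes of the import route 2 were called, both higher in KO: Tomm22, a receptor subunit of the outer membrane, by a log2 fold change of 0.39 (SE 0.10, edgeR adjusted p = 0.0196) and Timm8b, a chaperone of the intermembrane space, by 0.75 (SE 0.23, adjusted p = 0.0482). Without single libraries that count was 0 without KO replicate 1 and 1 in each of the other 3 cases. The outer-membrane channels Vdac1 (log2 fold change 0.41, SE 0.10, edgeR adjusted p = 0.0139) and Vdac3 (0.45, SE 0.12, adjusted p = 0.0206) rose, and Vdac2 was not called. Of the 2 calls, 0 were left without KO replicate 1 and 1 without WT replicate 1. Of 18 other inner-membrane transporters, which include the pyruvate carrier and the calcium uniporter, 1 was called: Ghitm fell by 0.30 on the log2 scale (SE 0.08, edgeR adjusted p = 0.0304). It was not called without KO replicate 2, without either WT library or after the length correction.

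Enzymes that use what the carriers move gave 0 to 2 calls per list, beside the same 14.5% of all tested genes. The 4 cytosolic and mitochondrial enzymes of the malate-aspartate shuttle gave 0 calls by edgeR and 0 by DESeq2, with 1 at an unadjusted p under 0.05, and the 6 genes of glutathione synthesis and use gave 0 by both tools, with 2 at an unadjusted p under 0.05. Of 10 genes of citrate use and fatty acid synthesis 1 rose, citrate synthase (Cs, log2 fold change 0.29, SE 0.08, edgeR adjusted p = 0.0384), but not with KO replicate 1 or WT replicate 1 left out. Of 12 genes of the carnitine shuttle and fatty acid oxidation 1 rose, Hadha of the trifunctional protein (0.37, SE 0.09, edgeR adjusted p = 0.0134). Of 6 genes of the mitochondrial folate pathway 1 rose, the serine hydroxymethyltransferase Shmt2 (0.47, SE 0.12, edgeR adjusted p = 0.0182), but not with WT replicate 1 left out. Of 17 genes of haem and iron-sulphur cluster synthesis 1 fell, the scaffold gene Iscu, by 0.53 on the log2 scale (SE 0.10, edgeR adjusted p = 0.00288). Of 13 genes that supply coenzyme A, thiamine and NAD, 1 rose and 1 fell. Pank4, a pantothenate kinase relative, rose by a log2 fold change of 0.57 (SE 0.10, edgeR adjusted p = 0.00239), and the pantothenate kinase gene Pank3 fell by 0.51 on the log2 scale (SE 0.08, adjusted p = 0.00135). Of 12 regulators of mitochondrial gene expression 1 fell, the mitochondrial transcription factor gene Tfb2m, by 0.57 on the log2 scale (edgeR adjusted p = 0.00617).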

How the data were processed

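The authors deposited gene counts of the 4 libraries and a table of RPKM values that also lists a length for each gene, in bases. FastQC 0.11.5, cutadapt 1.17, STAR 2.6.0a, HTSeq 0.6.1 and DESeq2 1.24.0 and the build GRCm38 (mm10) are named, per the submitters' processing notes. Neither the strand setting nor the annotation release is given in the sources used here, and overlapping genes may share reads. Each of the 214860 deposited RPKM values equals its count divided by length and library total, within a relative tolerance of 1e-06.

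The deposited counts of all 53715 genes were filtered (filterByExpr), scaled (TMM, 0.9926 to 1.006) and fitted in R 4.3.3 with edgeR 4.0.16 (robust quasi-likelihood, two-sided, genotype alone as term). P-values were adjusted by the Benjamini-Hochberg method over the 16588 genes tested, with calls made below 0.05. Fold changes are from this fit and levels are deposited RPKM, or CPM from library totals. Alternatives used other scalings and filters, DESeq2 1.42.0, limma 3.58.1 (voom, and RPKM on a log2 scale), a replicate block, a loess correction for length, and leaving out each library. Same-numbered libraries did not deviate together (r = -0.0391), and nothing in the labels pairs them. Replicate pairs differed beyond counting noise (chi-square over degrees of freedom 19 in KO and 16.7 in WT).

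All members enter the counts; some single results are not reported here. Called members, the 5 with the highest mean RPKM, those in pairs and the 3 nearest the threshold are given by library, and up to 4 called genes of each list are named; other members were added after their values were seen. The members, lists, pairs and motifs were chosen with earlier results of these data known. A simulation of KO against WT (16588 genes, 200 changed) recovered, among genes of at least 1 CPM, 14.7% of changes of 0.5 log2 units, 60% of those of 1, 70.5% of those of 2 and 91.4% of those of 3. It gave 2 false calls in 98. Fewer genes changed there than the 2408 called in the data, so these rates need not hold for the carriers. Coordinates are from GENCODE release 21 (GRCm38), to which 53620 identifiers were matched, and the deposited length equals the merged exon length there for 42 of 47 members. Promoters are from RefSeq. Figures were drawn with matplotlib 3.10.9 in Python 3.11.15.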

Additional observations from a re-analysis of the deposited data

How the results depend on the processing

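Carriers called higher numbered 3 as reported, 5 with a mean of at least 1 CPM as the filter, with limma-voom and after the length correction, and 0 with limma on log2 RPKM plus 0.5 or plus 0.1. Carriers called lower numbered 9 as reported, 5 after the length correction, 0 with log2 RPKM plus 0.5 or plus 0.1 (15 carriers at an unadjusted p under 0.05 in each), and 3 with log2 RPKM plus 0.5 over genes of at least 1 RPKM. Leaving out 1 library at a time gave 1 to 4 higher and 6 to 7 lower carriers, the lone library of a group being assumed to vary like the other group. The median log2 fold change of the carriers was -0.06 as reported, beside 0.00 for all tested genes. After the length correction it was 0.01, beside 0.06 for all tested genes. Without single libraries it was -0.03 to 0.03, beside -0.02 to 0.03 for all tested genes. Over all genes, higher calls numbered 1100 and lower calls 1308 as reported, against 1500 and 1036 after the length correction. Limma on log2 RPKM plus 0.5, plus 0.1 and plus 0.5 over genes of at least 1 RPKM gave 0, 22 and 538 higher calls. Lower calls were 0, 60 and 662 in the same order. Srsf1 kept its direction throughout, with a log2 fold change of -1.34 and an adjusted p of 0.0553 with log2 RPKM plus 0.5. With the replicate block 4 carriers were higher and 10 lower, and 1304 and 1505 genes over all; Slc25a4 (adjusted p = 0.0319) and Slc25a24 (0.0391) were added, and the numbers do not pair the samples. The causes of these shifts were not tested. Other scaling factors left the counts at 3 and 9, and no carrier called as reported changed direction under any of the 16 alternatives. With 2 libraries per group, changes near 0.5 log2 units were often missed in the simulation, in which fewer genes changed than were called in the data. Carriers that were not called are not shown to be alike in KO and WT.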
